A study of Homo sapiens with 34 samples.

Results

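The genes described here are 8 genes of the red cell membrane and of blood groups, namely GYPB, GYPC, RHAG, RHCE, KEL, SLC4A1, EPB42 and ANK1. They were taken by symbol, with no filter on their values, from the 20255 genes of the expression table, and each symbol matched a single row. The choice was made with earlier results of these data known. RNA was sequenced from the established human embryonic stem cell line H1 along a haematopoietic differentiation that received no added haematopoietic cytokine. The 34 samples form 12 populations. They include 1 sample of undifferentiated H1 cells labelled as having no treatment, and each other population has 3 replicates. Day 0 embryoid bodies were not sorted, nor were the day 2 and day 4 cells. On days 6, 9, 12 and 16 sorting gave a CD43- and a CD43+ fraction. The labels give BMP4 and hVEGF for the day 0 samples and hVEGF for all cells from day 2 on. In the paper's methods, however, day 0 is when the embryoid bodies begin to attach. Both factors are in the medium from then until day 2. By that account the day 2 cells had received BMP4, and the day 0 label may name the medium that followed. At day 16 the sort also used CD45, and the CD43-CD45- and CD43+/CD45+ fractions are called day 16 CD43- and CD43+ cells here. All samples come from a single cell line, and the study describes the replicates as independent biological ones.

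The red cell membrane is a lipid bilayer tied to a spectrin skeleton that lines its inner face. Ankyrin, the product of ANK1, links spectrin to the anion exchanger band 3, the product of SLC4A1, and protein 4.2, the product of EPB42, binds at that junction. Glycophorin C (GYPC) holds a further junction, and the Rh-associated glycoprotein (RHAG), which forms a complex with the Rh proteins, glycophorin B (GYPB) and the Kell protein (KEL) sit in the same membrane. GYPB carries the S and s antigens, GYPC the Gerbich antigens, RHCE the C, c, E and e antigens of the Rh system, KEL the Kell antigens and SLC4A1 the Diego antigens. These proteins are built up while erythroblasts mature, and most of their genes are regarded as erythroid genes, whereas GYPC is also expressed in other tissues.

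RefSeq promoters, 250 bases before to 50 bases after a start in GRCh38.p14, were held for 6 of the 8 genes (GYPB, GYPC, RHAG, RHCE, KEL and EPB42). None was held for SLC4A1 and ANK1. The first 25 bases after the start were found in GENCODE v29 transcripts of the gene for 7 of the 8 starts, the exception being the second start of GYPB. GATA factors such as the erythroid regulator GATA1 recognise AGATAA and AGATAG, and TGATAA and also TGATAG, and these letters were searched on both strands. At least 1 match lay in the window of all 6 genes and of all 8 of their starts, against 24.97% of the 35116 promoters of the table. The starts of GYPB lie close together and hold the same matches, as do those of RHCE, so the 8 starts are not separate sequences. In the 250 bases before a start alone, all 6 genes again held a match, but only 7 of their 8 starts, against 22.3% of all promoters. The matches before the first listed start are shown in 30 bases of the gene strand, because they are what these windows have in common, with the matched letters in capitals. TTATCA and CTATCA as well as CTATCT are matches on the opposite strand.
GYPB, 77 bases before the start, chr4:144019405-144019434, minus strand: tgcctcccctgcCTATCAgctgatgatggc
GYPB, 39 bases before the start, chr4:144019367-144019396, minus strand: ggtgggcctggaAGATAAcagctagtaggc
GYPC, 64 bases before the start, chr2:126656082-126656111, plus strand: aatgaagtctgcCTATCTccgggccagagc
RHAG, 31 bases before the start, chr6:49636853-49636882, minus strand: agtcctttgttcTTATCAacatctcacagc
RHCE, 76 bases before the start, chr1:25420884-25420913, minus strand: ccttgcagcctgAGATAAggcctttggcgg
KEL, 62 bases before the start, chr7:142962408-142962437, minus strand: cctgagaagctgAGATAAagggggaggaga
KEL, 26 bases before the start, chr7:142962372-142962401, minus strand: ggtgccccccacTGATAAgcaggctccacc
EPB42, 208 bases before the start, chr15:43221209-43221238, minus strand: ccagtgcagtccAGATAAcatctctgagag
EPB42, 61 bases before the start, chr15:43221062-43221091, minus strand: tcctggcacaagAGATAAaatgaacagggt
The matches of GYPC, RHAG, RHCE and KEL and the nearer match of EPB42 lie in an exon of another GENCODE v29 transcript of the same gene. CCNCNCCC, the CACC box read by KLF factors, was found in 5 of the 6 genes, GYPB being the exception, in 6 of the 8 starts and in 56.2% of all promoters. CANNTG, the E-box, was found in GYPB and GYPC, in 3 of the 8 starts and in 68.7% of all promoters. These are matches of letters and no test of binding.

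Values are GC-normalized tag counts that the authors scaled so that all 34 samples hold the same set of numbers in a different order, with a sum of 17856940 and a median gene at 197. A value is therefore close to a rank within its sample, sequencing depth cannot be read from it, and levels of different genes are not compared because they are not per length. Pearson's r across tested genes, which are not independent, ranged from 0.951 to 0.987 between replicates of a population. SPN, which encodes the sorted antigen CD43, was at 2338 to 9460 in CD43+ samples and at 18 to 328 in CD43- samples. PTPRC, which encodes CD45, was at 10084 to 15868 in day 16 CD43+ cells and at 18 to 42 in day 16 CD43- cells. Replicates of several sorted populations were apart in blood markers. Day 9 CD43+ replicate 2 had a summed level of 10 erythroid markers (haemoglobin genes, ALAS2, AHSP, KLF1 and TFRC) of 201303, against 291208 and 339346 in the other replicates. Day 12 CD43+ replicate 1 had 16877, against 26082 and 36013, and day 16 CD43+ replicate 3 had 23974, against 40005 and 56415. In day 12 CD43- cells the summed level of 7 granulocyte markers ran from 122 in replicate 1 through 927 in replicate 2 to 8420 in replicate 3, and in day 16 CD43- cells from 7410 in replicate 1 to 26840 in replicate 2. In such bulk samples, fewer cells of a type and less RNA per cell cannot be told apart.

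GYPB (ENSG00000250361, chromosome 4, 143996104 to 144019345, minus strand), one of the glycophorins, was listed at 0 in the undifferentiated sample and in all 3 day 0 samples. It was at 2, 0 and 2 at day 2 and at 99, 104 and 155 at day 4. In CD43+ cells GYPB was at 3246, 3262 and 2500 at day 6, at 2704, 2098 and 2188 at day 9, at 24, 104 and 88 at day 12 and at 144, 119 and 68 at day 16. In CD43- cells its values lay between 0 and 6 on all 4 days. The day 4 samples thus stood with the late CD43+ cells, whose values they overlapped at day 12 and day 16, and far below the early ones. GYPB was highest at day 6, where its values overlapped those of day 9. Of the 50-base windows of its protein-coding transcripts, 15.01% also occur in transcripts of other protein-coding genes. For the close copy GYPE alone the share was 2.71%. Reads may thus have been split between genes. GYPE was at 2850, 2680 and 2238 in day 6 CD43+ cells.

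GYPC (ENSG00000136732, chromosome 2, 126655933 to 126696675, plus strand) was measured in every sample. It was at 400 in undifferentiated cells, at 245, 225 and 345 at day 0 and at 557, 634 and 484 at day 2. It was at 954, 970 and 962 at day 4. In CD43+ cells GYPC was at 2069, 1986 and 1694 at day 6 and at 2168, 1357 and 1852 at day 9, and then at 777 to 992 at days 12 and 16. In CD43- cells its values ran from 546 to 1371 over the 4 days. Only the day 6 and day 9 CD43+ samples therefore stood above CD43- cells of the same day, and the populations that followed in the order of their means, down to day 12 CD43- cells, each overlapped the next.

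RHAG (ENSG00000112077, chromosome 6, 49605158 to 49636839, minus strand), which the Rh proteins need to reach the membrane, was at 1 or 2 in all undifferentiated, day 0 and day 2 samples. At day 4 it was at 586, 652 and 904. In CD43+ cells RHAG was at 5898, 7320 and 6242 at day 6 and at 4710, 5032 and 4839 at day 9. It was at 206, 1009 and 630 at day 12 and at 1550, 2410 and 800 at day 16. In CD43- cells RHAG was at 16, 30 and 18 at day 6, at 8, 2 and 6 at day 9, at 0, 0 and 8 at day 12 and at 40, 148 and 44 at day 16. Every day 6 CD43+ value lay above every day 9 value, and the day 16, day 4 and day 12 values that followed overlapped their neighbours in that order.

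RHCE (ENSG00000188672, chromosome 1, 25362249 to 25430192, minus strand), which encodes the protein with the C, c, E and e antigens, was at 12 or less in every unsorted sample. In CD43+ cells it was at 96, 122 and 64 at day 6, at 116, 75 and 134 at day 9, at 7, 22 and 28 at day 12 and at 85, 120 and 44 at day 16. The day 6, day 9 and day 16 values overlapped, and the day 12 values lay below all of them. In CD43- cells RHCE was at 1 to 18 at days 6, 9 and 12 and at 32, 17 and 41 at day 16. Its neighbour RHD shares 20.8% and TMEM50A, which lies on the other strand, 2.74% of the 50-base windows of RHCE transcripts. RHD was at 92, 97 and 88 in day 6 CD43+ cells, at 280, 90 and 268 at day 9, at 74, 207 and 174 at day 12 and at 182, 268 and 124 at day 16. The 250 bases before a start of RHCE and of RHD had 99.2% of their aligned bases in common.

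KEL (ENSG00000197993, chromosome 7, 142941114 to 142962681, minus strand), a zinc endopeptidase held in the membrane, was at 49 in undifferentiated cells and at 38, 26 and 46 at day 0. It was at 205, 182 and 188 at day 2 and at 734, 688 and 863 at day 4. In CD43+ cells KEL was at 1708, 1904 and 1944 at day 6 and at 1576, 1192 and 1436 at day 9. It was at 158, 338 and 258 at day 12 and at 1282, 1559 and 878 at day 16. In CD43- cells KEL was at 131, 150 and 316 at day 6, at 42, 146 and 38 at day 9, at 16, 119 and 60 at day 12 and at 381, 566 and 446 at day 16. The day 4 cells and the day 16 CD43- cells thus lay above all day 12 CD43+ samples, and the day 16 CD43+ values overlapped those of day 9.

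SLC4A1 (ENSG00000004939, chromosome 17, 44248385 to 44268141, minus strand), the gene of the band 3 anion exchanger, had another course. It was at 10 in undifferentiated cells, at 10, 11 and 8 at day 0, at 0, 2 and 0 at day 2 and listed at 0 in all 3 samples of day 4. In CD43+ cells SLC4A1 was at 80, 96 and 48 at day 6, at 8272, 1686 and 8797 at day 9, at 405, 452 and 338 at day 12 and at 6, 3 and 17 at day 16. In CD43- cells it was listed at 0 in all samples of day 6, and was at 5, 14 and 6 at day 9, at 12, 2 and 28 at day 12 and at 19, 18 and 63 at day 16. The 3 highest populations, CD43+ cells of days 9, 12 and 6 in that order, did not overlap, and the low day 9 value belonged to replicate 2. The mean at day 6 was 1.19% and the mean at day 16 was 0.139% of the mean at day 9.

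EPB42 (ENSG00000166947, chromosome 15, minus strand) was at 3 or less in undifferentiated, day 0 and day 2 cells and at 8, 15 and 14 at day 4. In CD43+ cells EPB42 was at 171, 212 and 136 at day 6, at 704, 207 and 598 at day 9, at 12, 11 and 6 at day 12 and at 34, 36 and 20 at day 16. In CD43- cells it was at 0 to 3 at days 6 and 9, listed at 0 in all 3 samples of day 12, and at 3, 10 and 6 at day 16. Day 9 replicate 2 was again low, and with it the day 9 values overlapped those of day 6. The table gives EPB42 a span of 43106225 to 43221283, longer than the 43197227 to 43221125 of GENCODE v29, and the longer span holds other genes on both strands, so reads of neighbours may be included.

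ANK1 (ENSG00000029534, chromosome 8, 41653220 to 41896762, minus strand) had a level in undifferentiated cells that was lower by day 4. It was at 374 in undifferentiated cells, at 294, 264 and 237 at day 0, at 72, 106 and 85 at day 2 and at 34, 54 and 82 at day 4. In CD43+ cells ANK1 was at 2178, 1819 and 1792 at day 6 and at 4790, 3118 and 4041 at day 9. It was at 251, 647 and 472 at day 12 and at 874, 1174 and 514 at day 16. In CD43- cells ANK1 was at 72, 32 and 13 at day 6, at 37, 19 and 34 at day 9, at 12, 17 and 30 at day 12 and at 91, 196 and 168 at day 16. The day 9 CD43+ values lay above all others, and the day 0 values lay above every CD43- value.

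Comparisons between populations used limma on log2(value + 1) over all 19788 genes that passed a filter on low values, which all 8 genes did. A gene was called where its p-value, adjusted over all tested genes by Benjamini-Hochberg, was below 0.05 and its fold change above 4, which is a difference (log2) beyond 2. Folds of genes near 0 depend on the added 1, and where a group was listed at 0 throughout the adjusted p-value is given here without a fold.

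At day 6, CD43+ cells had higher levels than CD43- cells of 7 of the 8 genes, GYPC being the exception, against 4.68% of all tested genes called higher. The difference (log2, ± SE, n = 3 in each group) was 9.50 ± 0.50 for GYPB (adjusted p = 5.81e-14), 8.23 ± 0.64 for RHAG (adjusted p = 5.43e-11) and 5.90 ± 0.45 for ANK1 (adjusted p = 4.32e-11). EPB42 differed by 7.09, RHCE by 3.76 and KEL by 3.32, and SLC4A1 was listed at 0 in all CD43- samples (adjusted p = 3.01e-08). GYPC differed by 0.84 ± 0.20 (adjusted p = 0.000772), less than the fold required. In none of the 8 genes did the 2 groups overlap, and the share of all tested genes without overlap was not counted. Without CD43- replicate 1 the ANK1 difference was 6.48 and without replicate 3 it was 5.29.

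The same 7 genes were called higher at day 9, against 8.65% of all genes. The difference was 9.73 ± 0.64 for RHAG (adjusted p = 5.39e-13), 9.65 ± 0.50 for GYPB (adjusted p = 7e-15), 9.18 ± 0.68 for SLC4A1 (adjusted p = 7.22e-12), 7.80 ± 0.50 for EPB42, 7.04 ± 0.45 for ANK1, 4.81 ± 0.62 for RHCE and 4.47 ± 0.48 for KEL. GYPC differed by 0.91 ± 0.20 (adjusted p = 0.00021). Again none of the 8 genes overlapped between the groups, which was not counted over all tested genes. Without CD43+ replicate 2, the low one, the SLC4A1 difference was 9.96, and without CD43+ replicate 3 it was 8.77. That of KEL ran from 4.13 without CD43- replicate 3 to 5.09 without CD43- replicate 2. That of RHCE ran from 4.35 without CD43- replicate 1 to 5.44 without CD43- replicate 3.

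At day 12, 6 of the 8 genes were called higher in CD43+ cells, against 11.8% of all genes. RHAG differed by 7.94 ± 0.64 (adjusted p = 1.81e-11), GYPB by 5.61 ± 0.50, SLC4A1 by 5.25 ± 0.68, ANK1 by 4.46 ± 0.45 and KEL by 2.27 ± 0.48 (adjusted p = 0.000154), and EPB42 was listed at 0 in all CD43- samples (adjusted p = 1.23e-06). RHCE, at 7, 22 and 28 against 6, 18 and 2, and GYPC overlapped between the groups, with differences of 1.25 ± 0.62 (adjusted p = 0.0751) and 0.22 ± 0.20 (adjusted p = 0.335). Single samples weighed more than on earlier days. Without CD43- replicate 1 KEL differed by 1.49 and was no longer called, and without replicate 2 by 2.90. RHAG differed by 7.41 without CD43- replicate 1, by 8.99 without CD43- replicate 3 and by 8.58 without CD43+ replicate 1. GYPB differed by 5.23 without CD43+ replicate 2 and by 6.26 without CD43+ replicate 1. SLC4A1 differed by 4.35 and 5.99 without CD43- replicates 2 and 3.

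At day 16 only GYPB, RHAG, ANK1 and EPB42 were called higher in CD43+ cells, 4 of the 8 genes, against 12.2% of all genes. Their differences were 4.66 ± 0.50 (adjusted p = 6.21e-09), 4.47 ± 0.64 (adjusted p = 6.47e-07), 2.48 ± 0.45 (adjusted p = 2.37e-05) and 2.15 ± 0.50 (adjusted p = 0.000443). KEL (1.39 ± 0.48, adjusted p = 0.0122) and RHCE (1.41 ± 0.62, adjusted p = 0.0456) did not overlap between the groups but did not reach the fold. SLC4A1, at 6, 3 and 17 in CD43+ and 19, 18 and 63 in CD43- cells, differed by -1.86 ± 0.68 (adjusted p = 0.0182), the one negative difference whose groups did not overlap. GYPC differed by -0.07 ± 0.20 (adjusted p = 0.778). The EPB42 call was lost without CD43- replicate 1, with a difference of 1.78. The RHAG difference was 4.10 without CD43+ replicate 2 and 5.07 without CD43- replicate 2. SLC4A1 passed the fold in the other direction, from -2.13 to -2.45, without CD43- replicate 1, CD43- replicate 2 or CD43+ replicate 3.

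**Figure D1:**
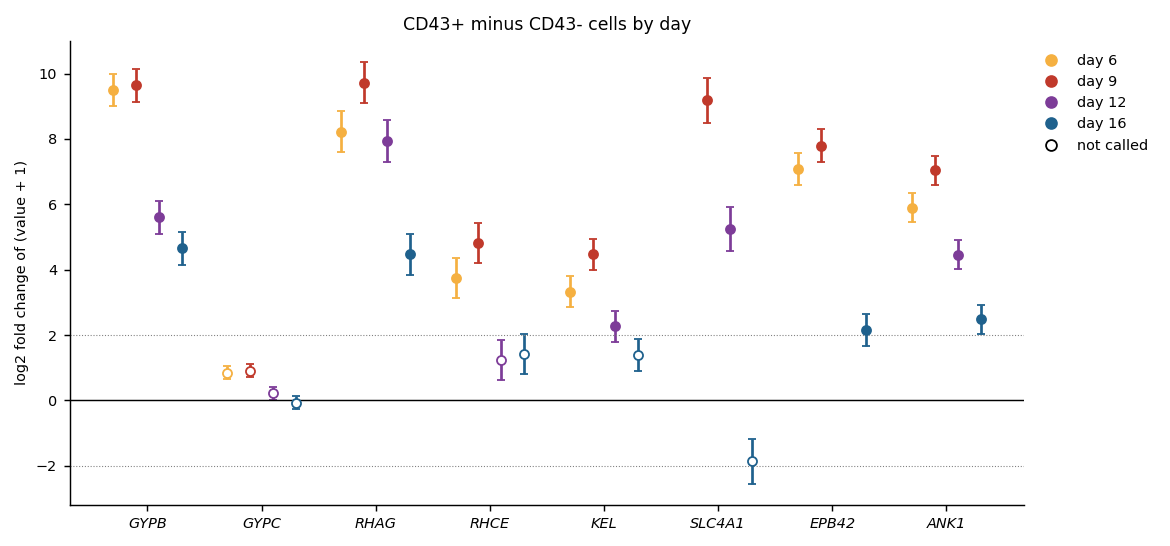
Log2 fold change of value + 1 between CD43+ and CD43- cells at days 6, 9, 12 and 16 for the 8 genes, with bars of 1 SE, filled points for called genes and dotted lines at a fold of 4. Points are left out where CD43- cells were listed at 0 (SLC4A1 at day 6, EPB42 at day 12). Differences of GYPB fell from 9.50 at day 6 to 4.66 at day 16, and SLC4A1 went from 9.18 at day 9 to -1.86 at day 16.

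The size of the CD43 difference was compared between days in the same fit. From day 6 to day 9 it grew for SLC4A1 (adjusted p = 0.0304), where CD43- cells had been listed at 0, against 3.21% of all genes called, and no other of the 8 genes was called. From day 9 to day 12 the difference shrank for 6 of the 8 genes, against 4.39% of all genes, with a change of -4.04 ± 0.71 for GYPB and -3.93 ± 0.97 for SLC4A1, and likewise for RHCE, ANK1, KEL and EPB42. The change of KEL (-2.20) was no longer called when any of 4 of the 12 samples was left out, with values from -1.93 without day 9 CD43- replicate 1 to -1.57 without day 12 CD43- replicate 2. For RHAG the change was -1.79 ± 0.90 (adjusted p = 0.144) and for GYPC -0.69 ± 0.28 (adjusted p = 0.0627). From day 12 to day 16 it shrank for SLC4A1 (-7.11 ± 0.97, adjusted p = 1.32e-05) and for RHAG (-3.46 ± 0.90, adjusted p = 0.00845), against 2.17% of all genes. ANK1 (-1.98) was called as well when any of 5 samples was left out. The call of SLC4A1 from day 6 to day 9 was lost when any of 6 of the 12 samples was left out.

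Within CD43+ cells, the step from day 6 to day 9 changed 1 of the 8 genes by the calling rule, against 3.56% of all genes called higher. SLC4A1 rose by 6.09 ± 0.68 (log2, adjusted p = 1.06e-07), by 6.87 without day 9 replicate 2 and by 5.68 without day 9 replicate 3. EPB42 differed by 1.38 ± 0.50 (adjusted p = 0.0376) and ANK1 by 1.03 ± 0.45 (adjusted p = 0.0875), while GYPB, RHAG, KEL, RHCE and GYPC differed by between -0.41 and 0.21.

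From day 9 to day 12, 7 of the 8 genes were called lower in CD43+ cells, against 6.54% of all genes. The difference was -5.43 ± 0.50 for EPB42 (adjusted p = 1.01e-09), -5.23 ± 0.50 for GYPB (adjusted p = 2.33e-09), -3.65 ± 0.68 for SLC4A1, -3.25 ± 0.64 for RHAG, -3.20 ± 0.45 for ANK1, -2.60 ± 0.62 for RHCE and -2.53 ± 0.48 for KEL. GYPC differed by -1.01 ± 0.20 (adjusted p = 8.27e-05), below the fold. No gene of the 8 overlapped between the days, which was not counted over all tested genes. Day 12 means were 1.92% of the highest population mean for EPB42, 2.398% for GYPB, 6.37% for SLC4A1 and 17.5% for RHCE, while GYPC kept 45.6%. Without day 9 replicate 2 the SLC4A1 difference was -4.43, and without day 9 replicate 3 it was -3.24. Those of GYPB and RHAG were -4.58 and -2.61 without day 12 replicate 1, and -5.62 and -3.75 without day 12 replicate 2. Over the same step the summed erythroid markers went from between 201303 and 339346 to between 16877 and 36013, and the summed granulocyte markers from between 24824 and 32335 to between 281037 and 308773. The part of a changed mixture of cells in these values was not tested.

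From day 12 to day 16 the genes of CD43+ cells parted. KEL was called higher (2.33 ± 0.48, adjusted p = 0.000339), as was RHCE (2.15 ± 0.62, adjusted p = 0.00639), against 3.79% of all genes, and SLC4A1 was called lower (-5.64 ± 0.68, adjusted p = 3.18e-07), against 5.26% of all genes. EPB42 differed by 1.55 ± 0.50 (adjusted p = 0.0143), RHAG by 1.50 ± 0.64 (adjusted p = 0.0585), ANK1 by 0.93, GYPB by 0.79 and GYPC by -0.04. At day 16 KEL stood at 66.9% and RHCE at 76.6% of the highest population mean, RHAG at 24.5%, ANK1 at 21.4%, EPB42 at 5.96% and GYPB at 3.67%. The RHCE call was lost without day 12 replicate 1 (1.59) and without day 16 replicate 2 (1.83). Without day 12 replicate 1 the differences of RHAG and GYPB were 0.85 and 0.14. The SLC4A1 difference was -6.23 without day 16 replicate 3 and -5.14 without day 16 replicate 2. Over this step the summed erythroid markers, at 23974 to 56415, and megakaryocyte markers, at 27581 to 103628, at day 16 overlapped those of day 12. RHAG, KEL, RHCE, ANK1, EPB42 and GYPB were lowest at day 16 in replicate 3, which also held the lowest erythroid and megakaryocyte sums. SLC4A1 was highest in that replicate, at 17, and GYPC lay between the other replicates. The part of the lower marker sums in these values was not tested.

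**Figure D2:**
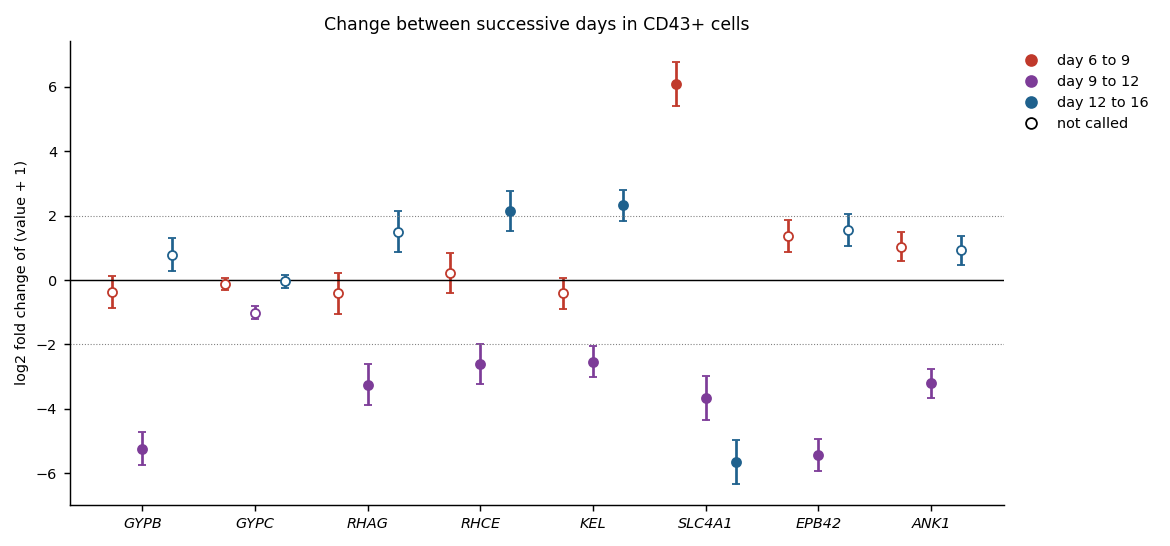
Log2 fold change of value + 1 between successive days in CD43+ cells for the 8 genes, with bars of 1 SE, filled points for called genes and dotted lines at a fold of 4. SLC4A1 alone was called higher from day 6 to day 9 (6.09), 7 genes were called lower from day 9 to day 12, and KEL and RHCE moved against SLC4A1 from day 12 to day 16.

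In CD43- cells GYPC was close to its level in late CD43+ cells, the other 7 genes lay at 566 or less, and most calls fell between day 12 and day 16. From day 6 to day 9 SLC4A1 was called higher, from 0 in all samples to 5, 14 and 6 (adjusted p = 0.00545), against 1.1% of all genes, and from day 9 to day 12 limma called 0 of the 8 genes in either direction, against 7.33% of all genes, with differences between -1.46 and 0.96, of which 2, those of GYPB and RHAG, had an unadjusted p below 0.05. KEL was also called lower from day 6 to day 9 without day 9 replicate 2 (-2.17), and RHAG from day 9 to day 12 without day 12 replicate 3 (-2.52). From day 12 to day 16, RHAG (4.97 ± 0.64, adjusted p = 5.89e-07), KEL (3.20 ± 0.48, adjusted p = 5.97e-06) and ANK1 (2.91 ± 0.45, adjusted p = 9.26e-06) were called higher, as was EPB42, which had been listed at 0 (adjusted p = 6.97e-05). These are 4 of the 8 genes, against 4.46% of all genes. RHCE differed by 1.99 ± 0.62, GYPB by 1.74 ± 0.50, SLC4A1 by 1.48 ± 0.68 and GYPC by 0.24 ± 0.20. These 4 genes were called whichever of the 6 samples was left out. Without day 12 replicate 3, GYPB (2.08) and SLC4A1 (2.21) were called as well, and RHAG differed by 6.02, and RHCE was called without day 12 replicate 2 (2.67) or day 16 replicate 2 (2.34). Most markers of 4 blood cell types rose over the same step, and macrophage markers went the other way. Called higher were all 7 megakaryocyte markers, 7 of 10 erythroid, 6 of 7 granulocyte and 5 of 6 mast cell and eosinophil markers, whereas 4 of 7 macrophage markers were called lower, against 5.97% of all genes, with a median difference (log2) of -3.74. The megakaryocyte markers summed to 194 to 1152 at day 12 and to 4989 to 15622 at day 16, the granulocyte markers to 122 to 8420 and to 7410 to 26840, and the macrophage markers to 394 to 6774 and to 1525 to 2135. Among the erythroid markers TFRC, which dividing cells of other kinds also express, was at 3536 to 6688 and at 6063 to 6575, while the other 9 summed to 9 to 375 and to 4192 to 8000. No marker of these 3 lists was at 0 in all 3 day 16 samples, and GATA1 was at 83, 232 and 134, while SPN was at 84 to 328 and the 6 mesenchymal markers summed to 270254 to 274568. RHAG was highest, at 148, in replicate 2, which also held the highest megakaryocyte sum. The erythroid sum was highest in replicate 3, at 14063, or 8000 without TFRC, and RHAG was at 44 there. The part of blood cells in these values of the CD43- fraction was not tested.

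Some of the genes changed before CD43+ cells were sorted. From day 0 to day 2, KEL was called higher by 2.39 ± 0.48 (adjusted p = 0.000271), against 4.4% of all genes, and SLC4A1 lower (-2.88 ± 0.68, adjusted p = 0.00153), against 3.48% of all genes, its level going from between 8 and 11 to between 0 and 2. GYPC differed by 1.05 ± 0.20 and ANK1 by -1.60 ± 0.45, below the fold. From day 2 to day 4, RHAG (8.26 ± 0.64, adjusted p = 5.37e-11), GYPB (5.82 ± 0.50, adjusted p = 5.57e-10) and EPB42 (2.36 ± 0.50, adjusted p = 0.000468) were called higher, 3 of the 8 genes, against 4.97% of all genes. KEL differed by 1.98 ± 0.48 (adjusted p = 0.00177), just under the fold, and passed it when any of 3 of the 6 samples was left out. The 10 erythroid markers summed to 2135 to 2335 at day 2 and to 2440 to 2537 at day 4, far below the 133041 to 161351 of day 6 CD43+ cells. TFRC made up most of the day 2 and day 4 sums, at 1920 to 2074 and at 1398 to 1609. The other 9 markers summed to 195 to 316 at day 2 and, without overlap, to 904 to 1082 at day 4. In day 6 CD43+ cells these 9 summed to 127266 to 149856.

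Day 4 cells were also compared with both fractions of day 6. In day 6 CD43+ cells 6 of the 8 genes were called higher than at day 4, against 6.8% of all genes. ANK1 differed by 5.15 ± 0.45 (adjusted p = 5.56e-10), GYPB by 4.66 ± 0.50, EPB42 by 3.73 ± 0.50, RHCE by 3.46 ± 0.62 and RHAG by 3.20 ± 0.64, and SLC4A1 had been listed at 0 (adjusted p = 3.09e-08). KEL differed by 1.29 ± 0.48 (adjusted p = 0.0265) and GYPC by 0.99 ± 0.20. In day 6 CD43- cells 4 of the 8 genes were called lower than at day 4, against 2.77% of all genes, namely RHAG (-5.03 ± 0.64), GYPB (-4.84 ± 0.50), EPB42 (-3.36 ± 0.50) and KEL (-2.04 ± 0.48, adjusted p = 0.00113). KEL was only just past the fold, and its call was lost without day 4 replicate 3 (-1.94), day 6 CD43- replicate 1 (-1.79) or day 6 CD43- replicate 2 (-1.89). ANK1, RHCE and GYPC differed by -0.75, -0.30 and 0.15. The day 4 values of GYPB, RHAG, EPB42 and KEL thus lay between those of the 2 fractions of day 6, and both comparisons share the day 4 samples.

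The likeness of the genes over the 11 replicated populations was described by Pearson's r of the mean log2(value + 1), without a test, since the same samples and the same CD43 sort underlie every gene. The highest r was 0.96 for GYPB with RHAG, followed by 0.95 for GYPB with EPB42, and RHAG with EPB42 had 0.91. KEL had its highest r among the 8 with RHAG (0.92) and ANK1 with EPB42 (0.90). SLC4A1 was least like the others, with r from 0.35 with KEL to 0.75 with ANK1, and GYPC had r of 0.38 with ANK1 and 0.77 with GYPB.

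Among all tested genes, those most like each of the 8 were ranked by the same r. For GYPB they included GYPE (0.987), with which it shares sequence, and AKR1C1 (0.979). For RHAG they were AC020571.3 (0.985), NXF3 (0.981) and the regulator GATA1 (0.980). For EPB42 they were ALAS2 (0.972), the first enzyme of haem synthesis in red cells, XK (0.969), the partner protein of Kell, and GYPB (0.953). For ANK1 they were NT5M (0.980), TFR2 (0.971), which encodes a transferrin receptor, and DNAAF3 (0.968). KEL was most like MOB1B (0.975), SULT1A4 (0.934) and SKAP1 (0.933), RHCE like RNF139-AS1 (0.966), TUBAL3 (0.963) and AK3 (0.957), and GYPC like TMEM57 (0.972), RP9 (0.955) and GAS2L1 (0.946). For SLC4A1 the highest values were lower, at 0.903 for AVPI1, 0.902 for TNFSF12-TNFSF13 and 0.894 for NDUFV3. These ranks depended on the measure. By Spearman's rho, ALAS2, XK and GYPB were no longer among the 3 genes most like EPB42, nor GATA1 for RHAG, nor TFR2 for ANK1.

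Other genes of the same structures were counted in lists. In the day 9 comparison of CD43+ with CD43- cells, 8.65% of all tested genes were called higher and 12.8% lower. No such share was counted for the unadjusted p below 0.05 that is used beside some counts. At day 9, 5 of 10 membrane skeleton and anchoring genes were called higher in CD43+ cells and 0 lower by limma, 1 being lower at an unadjusted p below 0.05, with a median difference (log2) of 2.09, against 0.24 over all tested genes and 7.42 over the 8 genes. Among the largest were DMTN (4.86 ± 0.46), which encodes the actin-bundling dematin, and SPTB (3.50 ± 0.40), which encodes beta spectrin. Of 26 other carriers of blood group antigens, 12 were called higher and 4 lower, with a median of 1.64, among them GYPE (8.82 ± 0.58) and ICAM4 (6.03 ± 0.41), which encodes the LW glycoprotein bound to the Rh complex. Of 8 enzymes that build carbohydrate antigens, limma called 0 higher, 2 being higher at an unadjusted p below 0.05, and 3 lower, namely GCNT2, A4GALT and B3GALNT1, with differences of -2.30, -2.25 and -2.24. Of 10 erythroid regulators, 7 were called higher and 0 lower, with 1 lower at an unadjusted p below 0.05, led by GATA1 (8.92 ± 0.62), KLF1 (8.55 ± 0.44) and GFI1B (8.17 ± 0.60).

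From day 9 to day 12 in CD43+ cells, where 6.54% of all genes were called lower and 8.45% higher, 4 of the 10 skeleton genes, 7 of the 26 carriers, 0 of the 8 enzymes and 2 of the 10 regulators were called lower by limma, and 2 carriers higher. At an unadjusted p below 0.05, 5 enzymes were lower. Their medians were -1.34, -0.74, -0.64 and -1.73, against -0.15 over all tested genes. From day 12 to day 16, where 3.79% of all genes were called higher and 5.26% lower, 0 skeleton genes and 0 regulators were called in either direction by limma, with medians of 0.55 and 1.04, and 6 genes of each list were higher at an unadjusted p below 0.05. The share of all tested genes at that unadjusted p was not counted for either step. Of the carriers, XK (2.12 ± 0.36, adjusted p = 3.14e-05) and CR1 (2.07 ± 0.59, adjusted p = 0.00579) were called higher. XK, at 19, 51 and 30 at day 12 and 102, 210 and 122 at day 16, was called in the same step as KEL, whose protein it binds. CR1, the complement receptor, is also a gene of myeloid cells, and was at 1566, 1386 and 923 at day 12 and 6012, 2278 and 10844 at day 16. Of the enzymes, FUT3 (3.29 ± 0.74) and ABO (2.35 ± 0.41), which encodes the A and B transferases, were called higher.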

How the data were processed

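Per the labels and the study's methods, the authors ran Bowtie2 and RSEM against Ensembl gene models (hg38) and made GC-normalized tag counts with EDASeq. The submitters' processing notes also list bcl2fastq and STAR 2.7. The deposited values are whole numbers with the same sorted values in every sample, and were treated as a normalized score, not as counts. A GC percent per gene is also deposited and was not tested. Strand use in counting is not given in the sources used here, and which of the study's sequencing companies ran which sample is not given either, so that a sequencing batch cannot be told apart from a population.

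All tests used limma 3.58.1 (R 4.3.3, eBayes with a mean-variance trend) on log2(value + 1). A single model held 33 samples and no term for the replicate number. The undifferentiated sample, without replicate, was not tested. The fit held the 19788 genes that reached 10 in 3 or more samples, and p-values were adjusted over all of them. On simulated data for the day 9 CD43 comparison, 197 of 200 genes with a changed level were recovered among 19788. The changes had a fixed size past the fold and were placed only in genes above a set mean level. Genes near 0 and changes close to the fold were thus not covered. The noise was drawn as normal on the log2 scale. Calls among the unchanged genes are not given here, so the 197 describe recovery only. Same-numbered CD43+ and CD43- samples had deviations correlated at 0.109 to 0.199 at day 6, and at -0.015 to 0.108 on later days. An alternative fit therefore held a replicate block within the day 6 populations, taken there as pairs. The reported day 6 differences come from the model without that block. GENCODE v29 gave exons and 50-base windows shared between transcripts, and RefSeq the promoters (GRCh38.p14). Tables were handled in Python 3.11.15 with pandas 2.3.3. The 8 genes, the gene lists and the tests were chosen with earlier results of these data known. By rule, the 8 genes are named, as are for each list the 3 genes with the largest called change in CD43+ against CD43- cells at day 9 and in CD43+ cells from day 12 to day 16, and the 3 genes most like each of the 8. Some of the genes this rule names are not reported here. The alternatives were pseudocounts of 0.1 and 10, no or a stricter filter, median-of-ratios scaling, replicate blocks, fits restricted to the compared populations, a fold above 2, Spearman's rho, promoters without the bases after the start, and leaving out each sample.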

Additional observations from a re-analysis of the deposited data

Results flagged for a closer look

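The change of the CD43+ against CD43- difference between days passed its own test (limma, adjusted p-value below 0.05 and a fold above 4 on log2(value + 1)) for these genes, each with n = 3 in every population. From day 6 to day 9 the difference grew for SLC4A1 (adjusted p = 0.0304), with no size given because day 6 CD43- cells were listed at 0. From day 9 to day 12 the difference shrank for EPB42 (adjusted p = 2.98e-05), again with a population listed at 0, and the change was -4.04 for GYPB (adjusted p = 0.000107), -3.93 for SLC4A1 (adjusted p = 0.00301), -3.57 for RHCE (adjusted p = 0.00286), -2.58 for ANK1 (adjusted p = 0.00306) and -2.20 for KEL (adjusted p = 0.0158). From day 12 to day 16 it was -7.11 for SLC4A1 (adjusted p = 1.32e-05) and -3.46 for RHAG (adjusted p = 0.00845). Over that last step SLC4A1 went from 405, 452 and 338 to 6, 3 and 17 in CD43+ cells, and RHAG from 0, 0 and 8 to 40, 148 and 44 in CD43- cells.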

How the results depend on the processing

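Counts of called genes among the 8 were within 1.5 times the reported ones without a filter, with a stricter filter, with median-of-ratios scaling (which moved the median of all genes at day 9 from 0.24 to 0.038) and with either replicate block, in each of the 17 comparisons. With the block on replicate numbers within the paired day 6 populations, 7 genes were called at day 6. With a pseudocount of 0.1, 3 genes were called in CD43- cells from day 9 to day 12, 0 where day 9 was set against day 6 in the CD43 difference and 4 where day 16 was set against day 12. With a pseudocount of 10, 0 were called in CD43- cells from day 6 to day 9, 1 from day 0 to day 2, 2 from day 4 to day 6 CD43- cells and 1 in the CD43 difference of day 16 against day 12. A fit of only the populations compared called 0 in CD43- cells from day 6 to day 9 and again 1 in the CD43 difference of day 16 against day 12, and no longer called RHCE in CD43+ cells from day 12 to day 16. With a fold above 2, 7 genes were called at day 16, SLC4A1 being lower in CD43+ cells (-1.86) and the others higher. From day 6 to day 9, 2 were called in CD43+ cells, SLC4A1 and EPB42, both higher. In CD43- cells 2 were called over that step, SLC4A1 higher and KEL lower (-1.56). From day 0 to day 2, 4 were called, KEL and GYPC higher and SLC4A1 and ANK1 lower. The share of all tested genes at that fold is not given here.

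Pseudocounts decided the size of differences against populations near 0: at day 12 GYPB differed by 8.09 with 0.1 and 2.81 with 10, and RHAG by 10.2 and 5.42. With 10, EPB42 was not called at day 12, at day 16 (1.29) and from day 2 to day 4 (0.93), nor RHCE from day 12 to day 16 (1.67).

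Leaving out 1 sample gave 0 to 1 calls for the CD43 difference of day 9 against day 6, 1 to 2 in CD43- cells from day 6 to day 9 and 0 to 1 from day 9 to day 12. The uncalled difference of SLC4A1 from day 2 to day 4, a fitted value that depends on the added 1 since day 4 was listed at 0, ran from -0.79 to 0.0 and did not turn positive. Uncalled differences changed sign for RHCE in CD43+ cells from day 6 to day 9 (-0.0395 to 0.45), and for GYPC there (-0.27 to 0.0696), at day 12 (-0.0132 to 0.38), at day 16 (-0.16 to 0.00465) and in CD43+ cells from day 12 to day 16 (-0.12 to 0.0527). Spearman's rho kept 2 of the 3 most alike genes for ANK1 and 0 or 1 for the other 7. The cause of these changes was not tested. With 3 replicates and values without depth, small differences of genes near 0 cannot be resolved.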
